A study of Mus musculus with 6 samples.

Results

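The genes described here are 10 transcripts through which cells feed back on, and report, signalling by the kinase ERK. They are the dual specificity phosphatases Dusp4, Dusp5 and Dusp6, the Sprouty genes Spry1, Spry2 and Spry4, the Spred genes Spred1 and Spred2, and the ETS transcription factors Etv4 and Etv5. They were chosen by gene symbol, with earlier results of these data known, and all 10 were among the 16472 genes of the authors' deposited table. The study used HT22, an immortalised mouse cell line derived from hippocampal neurons, in 6 cultures grown in serum-containing medium. A set of 3 cultures received AA147, a compound used to activate the stress regulators ATF6 and NRF2, at a concentration the labels write as 10 mM, and another 3 received the vehicle DMSO, in each case for 16 h. All of the mRNA came from 1 cell line with no genetic change named in the labels, and nothing in the labels says whether the 3 libraries of a group came from separate passages of cells. The error of the comparison therefore measures the spread between these libraries, which may be technical.

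ERK is the last kinase of a relay that runs from receptor tyrosine kinases through Ras, RAF and MEK. Active ERK enters the nucleus and induces genes whose products shut the relay down again: dual specificity phosphatases remove the activating phosphates from ERK itself, and Sprouty and Spred proteins act further up, at the level of Ras and RAF. ETV4 and ETV5 belong to the PEA3 group of ETS factors, are induced by the same signal and carry it on to further genes. Many of these loci are held down in unstimulated cells by the repressor Capicua, encoded by Cic, which ERK signalling inactivates. In neurons this relay is known for its part in the response to neurotrophins and in plasticity.

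Start-site sequences are shown for 3 of the genes, Spry1 and Dusp6 because they had the largest negative fold changes, and Spry2 because it holds, like Dusp6, a match to the octamer bound by Capicua. RefSeq windows on mouse assembly GRCm38.p6, trimmed to the 250 bases before each annotated start, were found for 7 of the 10 genes, with 8 windows because Etv5 has a pair of starts. The sequences run 5′ to 3′ on the strand of the gene, and capitals mark a Capicua octamer on either strand.
Dusp6, chr10:99262981-99263230, plus strand: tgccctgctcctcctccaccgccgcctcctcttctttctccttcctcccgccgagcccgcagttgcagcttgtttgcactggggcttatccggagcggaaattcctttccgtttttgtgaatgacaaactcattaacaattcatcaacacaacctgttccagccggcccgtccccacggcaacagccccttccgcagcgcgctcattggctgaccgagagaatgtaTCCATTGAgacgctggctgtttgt
Spry2, chr14:105896820-105897069, minus strand: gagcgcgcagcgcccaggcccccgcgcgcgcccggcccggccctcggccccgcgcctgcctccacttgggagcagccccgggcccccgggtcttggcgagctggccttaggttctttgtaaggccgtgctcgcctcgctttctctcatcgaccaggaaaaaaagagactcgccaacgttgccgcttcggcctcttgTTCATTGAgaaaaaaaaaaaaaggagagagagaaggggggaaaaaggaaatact
Spry1, chr3:37639697-37639946, plus strand: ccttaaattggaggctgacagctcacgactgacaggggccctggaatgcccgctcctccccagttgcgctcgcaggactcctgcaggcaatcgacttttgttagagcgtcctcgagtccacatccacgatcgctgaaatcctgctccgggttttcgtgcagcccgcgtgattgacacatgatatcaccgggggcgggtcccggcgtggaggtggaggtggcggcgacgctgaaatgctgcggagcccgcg
The octamers searched were TGAATGAA, TGAATGGA, TCAATGAA and TCAATGGA, on both strands. Dusp6 held TCAATGGA on the opposite strand, from 24 to 17 bases before the start, and Spry2 held TCAATGAA on the opposite strand, from 54 to 47 bases before the start. A Capicua octamer was thus present in 2 of the 8 windows, against 3.19% of all 32851 windows of this length in the RefSeq table. The core bound by ETS factors, GGAA, was in 7 of the 8 windows and in 93.4% of all windows. The longer ETS sequence CCGGAAG, which contains that core, was in 0 of the 8 and in 6.91% of all. The core of the antioxidant response element bound by NRF2, TGACNNNGC, was in the Dusp5 window alone among the 8, and in 10.2% of all windows. The AP-1 sequence TGACTCA was in 0 of the 8 and in 4.46% of all. These are matches of letters, chosen with the expression results known, and not measured binding.

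The values come from a single comparison in the authors' deposited table, which gives for each gene a mean over the 6 libraries in normalized counts, a log2 fold change with its standard error (SE) and an adjusted p. The table does not name the numerator of the fold change. A positive value is read here as higher with AA147, and every direction below is conditional on that reading. No value per library was analysed here, so the mean of each group is the one implied by the deposited mean and fold change with 3 libraries on each side, and it carries no spread of its own. Depth per library is unknown, and the means of all genes summed to 30768012. A gene is called where the adjusted p, over the 13597 genes that have one, is under 0.05. In a bulk culture, fewer expressing cells and less RNA per cell cannot be told apart.

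On that reading, Spry1, Dusp6 and Etv4 fell with AA147 and Dusp4 rose, while the other 6 genes were not called in the authors' deposited table. Of the 10 genes 3 were thus called negative, against 11.1% of all genes with an adjusted p, and 1 positive, against 9.05%. In either direction the count was 4 of 10, beside 20.2% of all such genes and 23.8% of those with a mean of at least 100. With only 10 genes, chosen with earlier results of these data known, these counts are a description and not a test. The fold change was negative for 8 of the 10 and positive for Dusp4 and Spred2, and the median log2 fold change was -0.25, beside 0.01 over all genes with an adjusted p.

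**Figure D1:**
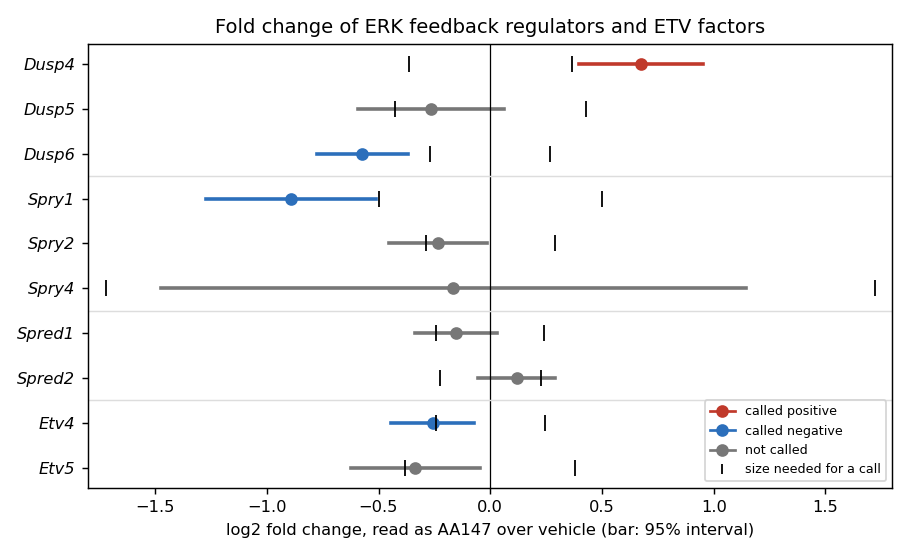
Log2 fold change of each gene in the authors' deposited table (x axis) with its 95% interval, by family from top to bottom; black ticks mark the absolute size at which the gene would have been called. Dusp4 alone lies beyond its tick on the positive side, at 0.67, Dusp6, Spry1 and Etv4 lie beyond theirs on the negative side, and the interval of Spry4 runs from -1.47 to 1.14.

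The dual specificity phosphatases did not move together. Dusp4, a nuclear phosphatase that acts on ERK and on the stress kinase JNK, had an implied mean of 196 normalized counts with vehicle and 312 with AA147. Its log2 fold change in the authors' deposited table was 0.67 (SE 0.14, adjusted p 3.76e-05), a 1.60-fold higher level with a 95% interval from 1.32 to 1.93. Only 2.77% of genes with an adjusted p had a higher fold change. Dusp6, the cytoplasmic phosphatase that is selective for ERK, went the other way, with an implied mean of 668 with vehicle and 449 with AA147. Its log2 fold change in the authors' deposited table was -0.57 (SE 0.10, adjusted p 9.99e-07), the smallest adjusted p of the 10 genes, and the level with AA147 was 0.67 times that with vehicle (95% interval 0.58 to 0.77). The intervals of Dusp4 and Dusp6 lie on opposite sides of no change. Dusp5, a nuclear phosphatase selective for ERK, had implied means of 276 with vehicle and 230 with AA147. Its log2 fold change of -0.27 in the authors' deposited table (SE 0.17, adjusted p 0.279) was not called, and its interval from -0.59 to 0.06 includes no change. Dusp4 and Dusp5 had nearly the same mean over the libraries in the authors' deposited table, 254 and 253 normalized counts.

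The Sprouty genes all had negative fold changes of unequal size. Spry1, which encodes a membrane-associated inhibitor of signalling between receptor tyrosine kinases and RAF, had an implied mean of 186 normalized counts with vehicle and 100.2 with AA147. Its log2 fold change in the authors' deposited table was -0.89 (SE 0.19, adjusted p 7.68e-05), the lowest of the 10 genes, and only 2.32% of genes with an adjusted p lay lower. The level with AA147 was 0.54 times that with vehicle (95% interval 0.41 to 0.70). Spry2, the better expressed paralog, had implied means of 582 with vehicle and 495 with AA147, and its log2 fold change of -0.23 in the authors' deposited table (SE 0.11) was not called (unadjusted p 0.0382, adjusted p 0.134). The 95% intervals of Spry1, from -1.27 to -0.51, and of Spry2, from -0.45 to -0.01, do not overlap. The difference between their fold changes was not tested, since the 2 values come from the same libraries. Spry4 had a mean of 10.3 in the authors' deposited table and a log2 fold change of -0.16 (SE 0.67, adjusted p 0.912). At that depth a log2 change under 1.72 in size would not have been called, so a change like that of Spry1 was not detectable for Spry4.

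The Spred genes had small fold changes of opposite sign. Spred1 and Spred2 encode adaptors that bring the Ras inactivator neurofibromin to the membrane. Spred1 had implied means of 804 normalized counts with vehicle and 722 with AA147, and its log2 fold change in the authors' deposited table was -0.15 (SE 0.093, adjusted p 0.257). Spred2 had implied means of 1009 and 1095, with a log2 fold change of 0.12 in the authors' deposited table (SE 0.087, adjusted p 0.383). Neither was called, and the 95% intervals, from -0.34 to 0.03 for Spred1 and from -0.05 to 0.29 for Spred2, exclude for either gene a fall as large as that of Dusp6.

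Of the ETV factors, Etv4 was the one called. Its implied means were 1137 normalized counts with vehicle and 950.4 with AA147, and its log2 fold change in the authors' deposited table was -0.26 (SE 0.095, adjusted p 0.0359), or 0.84 times the vehicle level (95% interval 0.73 to 0.95). Etv5 had implied means of 325 with vehicle and 257 with AA147. Its log2 fold change of -0.34 in the authors' deposited table (SE 0.15, unadjusted p 0.0226) was larger in size than that of Etv4, but its wider SE left it short of a call (adjusted p 0.0924). The 95% interval of Etv5, from -0.62 to -0.05, contains that of Etv4, from -0.44 to -0.07, so these data do not separate the pair.

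**Figure D2:**
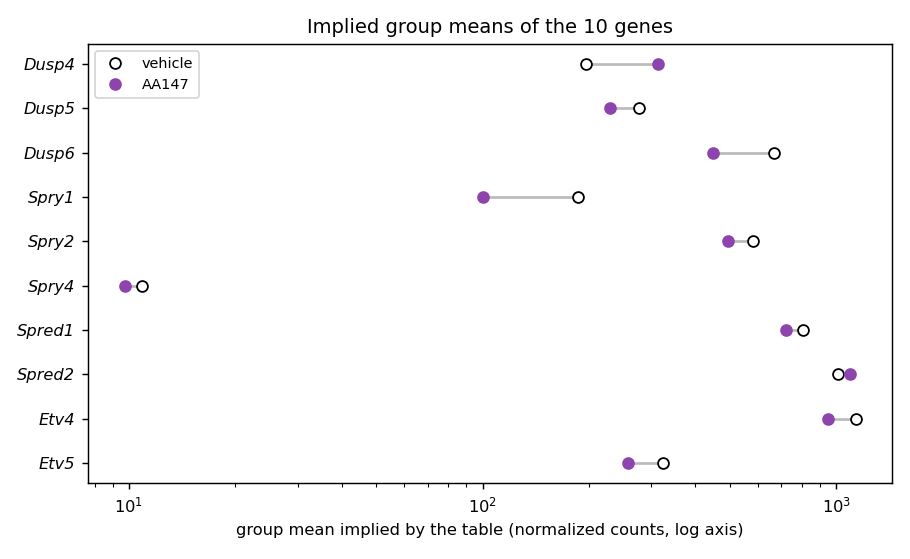
Mean of each group in normalized counts (x axis, log scale) as implied by the deposited mean and fold change, with vehicle as open and AA147 as filled points; no spread per group can be drawn. The AA147 point lies to the left of the vehicle point for 8 genes and to the right for Dusp4 and Spred2.

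Among the 10 genes, levels ranged widely once divided by the length of the canonical transcript. Etv4 had the highest level, at 435 normalized counts per kilobase, followed by Spred2 at 219, Dusp6 at 197 and Spry2 at 166. Spred1 at 121, Dusp5 at 102 and Dusp4 at 92.4 normalized counts per kilobase lay in the middle, and Etv5 at 72.9, Spry1 at 52.9 and Spry4 at 2.17 at the lower end. The spread of these levels over libraries is unknown, so the order of close neighbours is not established. The SEs were ordinary for genes of this abundance, from 0.93 to 1.09 times the median SE of the 200 genes nearest in mean. Libraries were not stranded, and 6 of the 10 genes overlap an annotated exon of another gene on the other strand in GENCODE release M39. Of those overlapping genes the table lists Gm34921, opposite Dusp6, with a mean of 61.2 and a log2 fold change of -0.52 (SE 0.28, adjusted p 0.189). Reads that fall within the stretch shared by the pair cannot be told apart, and the length of that stretch was not measured.

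**Figure D3:**
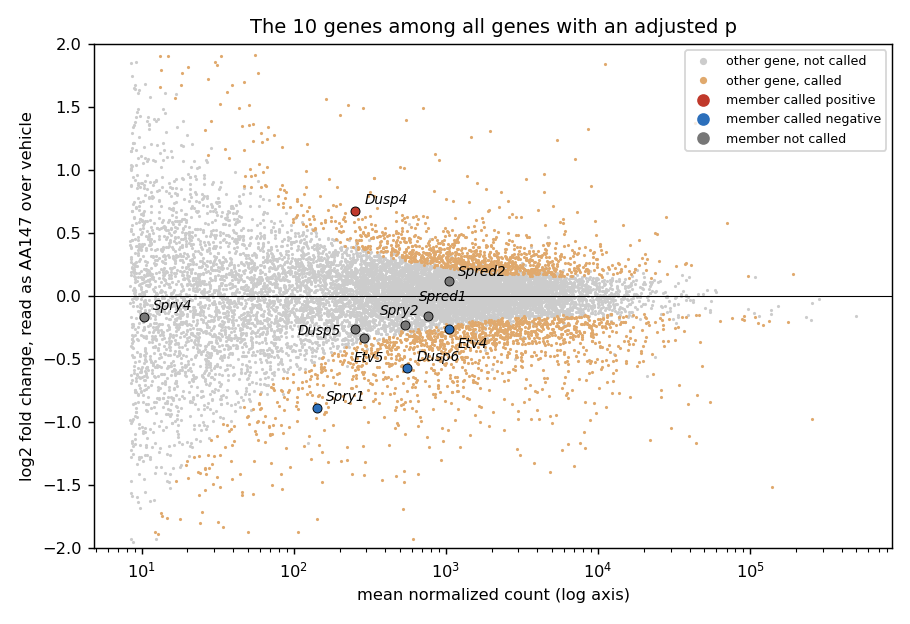
Log2 fold change (y axis, cut at 2 in either direction, with 70 genes outside) against mean normalized count (x axis, log scale) for the 13597 genes with an adjusted p in the authors' deposited table; large points are the 10 genes. Dusp4 lies above most genes of its mean, Spry1 and Dusp6 below most of theirs, and Spry4 far to the left among genes with a wide scatter.

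The transcripts of the kinase relay were read from a list of adaptors, GTPases and kinases. All 27 listed genes from the receptor adaptors to the ERK substrates were in the authors' deposited table, of which 1 was called positive and 2 negative, or 11.1% beside 20.2% of all genes with an adjusted p. The fold change was positive for 22 of the 27 and for 7026 of the 13597 genes with an adjusted p. The median log2 fold change of the 27 was 0.09, beside 0.01 over all genes with an adjusted p. Nras, a Ras GTPase, was the positive call at 0.30 (SE 0.078, adjusted p 0.00124) per the authors' deposited table. Rras, a Ras relative linked to adhesion, was called at -0.58 (SE 0.092, adjusted p 1.1e-08), and Map2k2, which encodes one of the MEK kinases, at -0.21 (SE 0.065, adjusted p 0.00904) per the authors' deposited table. Of the 17 other negative regulators of receptor and Ras signalling in the authors' deposited table, 0 were called by the authors' DESeq2 test. Over all genes with an adjusted p, 20.2% were called. An unadjusted p under 0.05 was found for 1 of the 17, Pebp1, which encodes an inhibitor of RAF (log2 fold change -0.16, SE 0.068, adjusted p 0.0786). The 17 included the Spred relative Spred3 at -0.33 (SE 0.20, adjusted p 0.246) and Errfi1, an inhibitor of the EGF receptor, at 0.07 (SE 0.11, adjusted p 0.722). Cbl at 0.19 (SE 0.37) and Nf1 at 0.18 (SE 0.24) had unusually wide SEs. These were 3.40 and 3.46 times the median SE of the 200 genes nearest in mean, so only larger changes could have been called for Cbl and Nf1.

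Relatives of the phosphatases and ETV factors had called genes on both sides of no change. Of the 11 other dual specificity phosphatases with an adjusted p in the authors' deposited table, 2 were called positive and 1 negative, with a median of 0.03. These calls were 27.3% of the 11, beside 20.2% of all genes with an adjusted p. Dusp10, a phosphatase of the stress kinases, was called at 0.45 (SE 0.11, adjusted p 0.000283) and Dusp3 at 0.30 (SE 0.11, adjusted p 0.0396), and Dusp14 was called at -0.37 (SE 0.086, adjusted p 0.000199) per the authors' deposited table. Dusp1, an immediate early phosphatase, had a log2 fold change of 0.22 (SE 0.10) and was not called (adjusted p 0.120) per the authors' deposited table. Of the 15 genes in the authors' deposited table for other ETS factors and Capicua, 1 was called positive and 2 negative, with a median of 0.05. Those calls were 20.0% of the 15, close to the 20.2% of all genes. Etv1, the remaining factor of the PEA3 group, was called at -0.89 (SE 0.31, adjusted p 0.0238) on a mean of 53.9 in the authors' deposited table. All 3 factors of that group thus had negative fold changes, with Etv1 and Etv4 called and Etv5 not. Elk3 was called at -0.23 (SE 0.063, adjusted p 0.00197), and Etv6, a repressor of the ETS family, at 0.45 (SE 0.090, adjusted p 1.02e-05) per the authors' deposited table. The Capicua gene Cic itself had a mean of 11595 and a log2 fold change of -0.01 (SE 0.066, adjusted p 0.935) per the authors' deposited table.

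**Figure D4:**
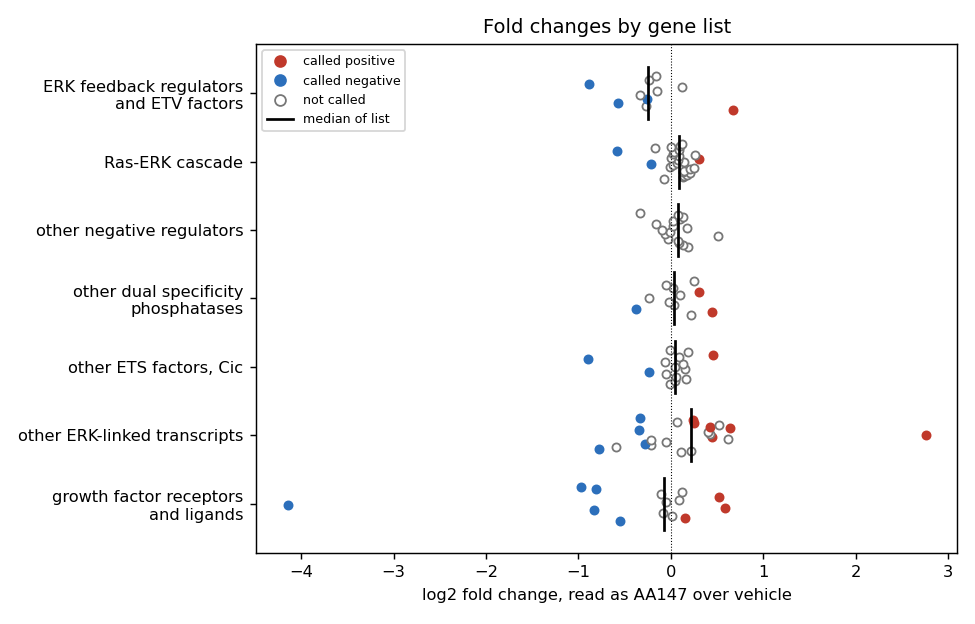
Log2 fold change (x axis) of every gene with an adjusted p in each list (rows), with filled points for called genes and a black line at the median. The median of the ERK feedback regulators and ETV factors lies at -0.25, and that of other transcripts linked to ERK at 0.22, with called genes on both sides of no change in each.

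Other transcripts known to follow ERK activity did not share one direction either. Of 21 such genes in the authors' deposited table, 6 were called positive and 4 negative, with a median log2 fold change of 0.22. Together these calls were 47.6% of the 21, beside 20.2% of all genes with an adjusted p. This list too was chosen with earlier results known, and it shares Dusp1 with the list of other dual specificity phosphatases. The median of 0.22 is the value of Dusp1 itself. On the positive side, Ier3 stood at 0.64 (SE 0.096, adjusted p 1.23e-09), and the AP-1 subunit genes Fosl1 and Junb at 0.44 (adjusted p 6.83e-05) and 0.42 (adjusted p 0.000102) per the authors' deposited table. Myc, the growth regulator, was called at 0.25 (adjusted p 0.00484) per the authors' deposited table. On the negative side, the immediate early transcription factor gene Egr1 stood at -0.77 (SE 0.13, adjusted p 5.72e-08) per the authors' deposited table. Plk3 at -0.34 (adjusted p 0.00106), Ier2 at -0.35 (adjusted p 0.00385) and Emp1 at -0.28 (adjusted p 3.51e-05) were also called negative in the authors' deposited table. Plaur at 0.24 (adjusted p 0.0288) and the weakly expressed Gdf15 at 2.76 (SE 0.83, mean 10.3, adjusted p 0.00726) complete the calls in the authors' deposited table. Phlda1, Ccnd1, Epha2 and Epha4, which are often read together with Dusp4, Dusp6, Spry2, Spry4, Etv4 and Etv5 as a score of ERK pathway output, were not called, with log2 fold changes of 0.06, 0.11, -0.05 and -0.21 in the authors' deposited table.

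At the receptor end, 3 of 14 genes with an adjusted p in the authors' deposited table were called positive and 5 negative. Together these were 57.1% of the 14, beside 20.2% of all genes with an adjusted p. The list was chosen with earlier results known, so this share is a description. The receptor genes Pdgfrb at -0.97 (SE 0.074, adjusted p 1.74e-37), Pdgfra at -0.81 (SE 0.086, adjusted p 2.11e-19) and Egfr at -0.55 (SE 0.12, adjusted p 0.00012) were called negative in the authors' deposited table. The ligand genes Igf1 at -4.14 (SE 0.28) and Fgf7 at -0.83 (SE 0.097, adjusted p 8.92e-16) were called negative too. Fgfr1, a receptor for fibroblast growth factors, was called at 0.59 (SE 0.077, adjusted p 7.26e-13), the ligand gene Pdgfa at 0.52 (SE 0.096, adjusted p 1.9e-06) and Erbb2 at 0.16 (SE 0.060, adjusted p 0.0471) per the authors' deposited table. The median of these 14 genes was -0.07.

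Several markers of cell identity were called in the same comparison. Of 12 neuronal markers, 4 were in the authors' deposited table, with Tubb3 at a mean of 1199 and Syn1 at 562 the only 2 with an adjusted p. The other 8, among them Map2, Rbfox3 and Snap25, were looked for and were not among its 16472 genes. Tubb3 was called at 0.43 (SE 0.092, adjusted p 5.67e-05) per the authors' deposited table. Of 8 fibroblast markers, 7 were in the authors' deposited table and 6 were called negative, 2 of which are the receptors Pdgfra and Pdgfrb. Of all genes with an adjusted p, 11.1% were called negative. The fibroblast marker not called was Thy1, at -0.03 (adjusted p 0.817) per the authors' deposited table. The summed implied means of the 7 fibroblast markers were 608217 normalized counts with vehicle and 275680 with AA147, and none of the 7 was near 0, with the lowest mean at 181. Most of that sum is the collagen genes Col1a2, at 336475 and 171534, and Col1a1, at 206337 and 72014. The summed implied means of the 4 neuronal markers were 1575 with vehicle and 1967 with AA147, and most of that sum is Tubb3, at 1022 and 1376. Syn1 was not called, at 0.13 (adjusted p 0.558) per the authors' deposited table, and the scarce Stmn2 and Slc17a7 had negative values of -1.53 and -1.98 with no adjusted p. Of 4 astrocyte markers, 2 were in the authors' deposited table, of which Slc1a3, a glutamate transporter gene, was called at -1.30 (SE 0.089, adjusted p 2.39e-45) and Aldh1l1 at -0.48 (adjusted p 0.484) was not. Their summed implied means were 1350 with vehicle and 559 with AA147. Of 5 microglial markers, 2 were in the authors' deposited table, with Tmem119 called at -0.49 (adjusted p 0.000214) and Csf1r at 0.95 (adjusted p 0.0278), and summed implied means of 539 and 423. Of 4 endothelial markers, 3 were in the authors' deposited table with means of at most 5.77 and no adjusted p, and 1 of them, Tek, had an unadjusted p under 0.05 (0.00481). Their summed implied means were 9.67 with vehicle and 22.4 with AA147. The part of these shifts in the values of the ERK feedback genes was not tested.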

How the data were processed

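Messenger RNA of 6 HT22 cultures, 3 with AA147 and 3 with vehicle, was sequenced without strand information per the labels' protocols. DESeq2 and genome build mm9 are named in the submitters' processing notes; aligner, counter and annotation are not given in the sources used here. The signal deposited per gene is a normalized count averaged over libraries by the authors. The authors deposited a log2 fold change with its standard error, also in log2 units, and their ratio as a score, the Wald statistic. The authors deposited a p-value and a Benjamini-Hochberg adjusted p-value, which 2875 genes of at most 8.41 in mean lack.

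Group means were computed from the mean and fold change, 95% intervals from a normal error, and the size needed for a call as 2.58 standard errors, the smallest statistic called. The 10 genes, the 6 pathway lists (123 genes), the marker lists and the motifs were chosen with earlier results of these data known. Named were the 10 genes and, per list, called genes up to the 8 with the smallest adjusted p, with any gene of at least 0.5 in absolute log2 fold change and a mean of at least 100. Spred3, Errfi1, Pebp1, Cbl, Nf1, Dusp1, Cic, Gm34921, Plaur, Gdf15, Phlda1, Ccnd1, Epha2, Epha4 and the markers were named after their values were seen. Values of some listed genes and the oligodendrocyte markers are not reported here. Alternatives were other thresholds, adjustments, centring, a null interval and raised standard errors. Code was tested on simulated data. Transcript lengths came from GENCODE M39 (GRCm39). Python 3.11.15, pandas 2.3.3 and SciPy 1.17.1 were used.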

Additional observations from a re-analysis of the deposited data

How the results depend on the processing

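No paired analysis was possible because only a summary over all 6 libraries was analysed here. The replicate block and leaving out each replicate in turn were therefore not run. The count of 4 called genes of the 10 was 4 again with centring on the median of genes with a mean of at least 100 (0.01), with raised standard errors, with adjustment over all genes with a p, and with only genes of a mean of at least 100; Dusp4, Dusp6, Etv4 and Spry1 were the genes called each time. It was 3 at an adjusted p under 0.01 and against a null interval of 0.2 in size, where Etv4 was lost, and 2 with a Bonferroni adjustment, where Etv4 and Spry1 were lost. The stricter rules also cut the calls over all genes from 2741 to 1818 at an adjusted p under 0.01, 774 with Bonferroni and 614 with the null interval, and the positive share from 44.9% to 41.4%, 32.3% and 31.9%. Of 30 values of single genes under centring, the null interval and raised standard errors, 29 kept their status as called or not called. Etv4 lost its call with the null interval. Only Dusp4, Dusp6, Spry1 and Etv4 had a call to lose. The null interval and raised standard errors leave the fold change as it is and can only remove calls. For the other 6 genes the outcome under these settings was therefore fixed in advance. Centring moved each value by only 0.01, and the smallest in size was 0.12, for Spred2. No sign could therefore have reversed under these settings. The depth per library is unknown, and for Spry4 the low mean sets the limit.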
